A study of Mus musculus with 6 samples.

Results

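The expression of 9 genes of glucose uptake and early glucose metabolism was examined in pancreatic islets: the transporters *Slc2a2* and *Slc2a1*, the hexokinases *Hk1* and *Hk2*, the islet glucose-6-phosphatase *G6pc2*, the pyruvate kinase *Pkm*, and the enzymes *Pcx*, *Gpd2* and *Me1*. The genes were taken by name from the deposited table, which held 1 row for each of the 9 among 55060 genes. RNA came from isolated islets of 3 Ctrl and 3 cKO samples of mice aged 12 weeks. In the cKO group, *Ins2-cre; Parn f/f*, exon 7 of *Parn*, a poly(A)-specific ribonuclease, is flanked by loxP sites and deleted where the *Ins2* promoter drives Cre, which in the pancreas is the β cell. The Ctrl group was made up of *Parn f/f* mice and other littermates. Whether any Ctrl sample carried Cre, the sex of the mice and the number of mice behind each sample are not given in the sources used here, so p-values measure the spread between these samples. Whole islets hold α, δ and other cells that keep *Parn*, and their RNA is part of every value.

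Glucose enters the mouse β cell mainly through GLUT2, the low-affinity transporter encoded by *Slc2a2*, and is phosphorylated to glucose-6-phosphate before it runs through glycolysis to pyruvate. Mature β cells keep little high-affinity hexokinase, so that the rate of phosphorylation follows the glucose concentration, and G6PC2 returns part of the glucose-6-phosphate to glucose. Pyruvate enters the mitochondria, where pyruvate carboxylase (*Pcx*) replenishes the citric acid cycle, while the glycerol phosphate shuttle (*Gpd2*) and malic enzyme (*Me1*) move reducing equivalents. The resulting ATP closes potassium channels and starts insulin release. The comparison asks whether these steps differ in transcript level between islets with and without *Parn* in β cells.

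Of the 9 genes, *G6pc2* and *Slc2a1* stood highest in cKO relative to Ctrl islets. In Ctrl islets the *G6pc2* FPKM was 1117 ± 139 and in cKO islets 1442 ± 29.8 (mean ± SD of 3 samples), without overlap between the groups. That of *Slc2a1* was 4.42 ± 0.855 and 7.23 ± 2.15, with overlap. *Gpd2* had the most negative difference on the log2(FPKM + 1) scale, with 9.27 ± 1.43 FPKM in cKO against 12.3 ± 3.14, whereas the scarce *Hk2* had the lowest ratio of means, 0.478, with 1 Ctrl sample far above the others. In every gene but *G6pc2* and *Slc2a1*, the difference between the means was smaller than the SD of the Ctrl samples. At an adjusted p under 0.05 (limma, Benjamini-Hochberg over all genes tested), 0 of the 9 genes and 0 of all 21211 genes passed. With voom on reads the count over all genes was also 0. The authors, who used DESeq2, report genes both higher and lower in cKO islets, at a threshold that the paper's text does not give. Why the counts differ was not tested. At an unadjusted p under 0.05, 1 of the 9, *Slc2a1*, was higher and 0 were lower, where 4.33% of all genes tested were higher and 3.07% lower. The median difference over the 9 genes, -0.01 on the log2(FPKM + 1) scale, was to 2 decimals that of all genes tested, -0.01.

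FPKM relates the reads on a gene to the gene's length and the library's depth. Levels of different genes can be compared only roughly, since the sources used here do not say how reads matching more than 1 place were counted. The reads on genes, read back from the values, lay between 16289408 and 17944775 per sample. *Parn* was lower in each cKO than in each Ctrl sample, with FPKM values of 4.97, 4.61 and 6.15 against 6.64, 8.34 and 7.38 (log2 difference -0.44, limma adjusted p = 0.545). Of all genes tested, 919 had a higher and 651 a lower cKO mean at an unadjusted p under 0.05, a split that became 1801 and 315 as TPM and 2159 and 152 after scaling to β-cell markers. Ctrl replicate 1 stood apart: its summed FPKM over 8 leukocyte markers was 907, against 148 to 247 in the other samples, and over 5 erythroid markers 1204, against 186 to 240. Exocrine RNA was present in all samples: 11 acinar markers summed to 7735 to 21028 FPKM in Ctrl and 9566 to 34894 in cKO, and all 11 had a higher mean in cKO (median log2 difference 0.65), with 0 at an unadjusted p under 0.05. Islet hormones were abundant throughout, with *Ins2* at 109030 FPKM or more and *Gcg* at 8219 or more. Markers of other endocrine and duct cells overlapped in their sums between the groups, with 7 α-cell markers at 11085 to 16363 FPKM in Ctrl and 8765 to 16327 in cKO, 4 δ-cell markers at 4280 to 6985 and 5087 to 7987, 1 PP-cell marker at 6846 to 17895 and 11221 to 14340, and 5 duct markers at 53.2 to 88.3 and 59.5 to 70.4.

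The stretches of DNA just before the start of 3 of the genes are shown because the results turn on these genes: *Slc2a2* as the main β-cell transporter, and *Slc2a1* and *G6pc2* as the genes with the largest positive differences. They come from the RefSeq promoter table for GRCm38.p6, in which all 9 genes had at least 1 entry, and for each gene the entry at the start of the gene is shown. The *Slc2a2* stretch covers chr3:28697653-28697902, the *Slc2a1* stretch chr4:119108495-119108710 and the *G6pc2* stretch chr2:69210823-69211072, all on the plus strand, and each ends at the base before the start of the gene in the deposited table. Capitals mark the letters CANNTG, the core of the E-box that many helix-loop-helix factors recognise, which reads the same on both strands.
*Slc2a2*: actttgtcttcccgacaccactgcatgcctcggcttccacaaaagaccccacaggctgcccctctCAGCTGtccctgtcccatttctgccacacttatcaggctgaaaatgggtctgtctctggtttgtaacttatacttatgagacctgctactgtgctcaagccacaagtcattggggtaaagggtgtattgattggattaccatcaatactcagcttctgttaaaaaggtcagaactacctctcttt
*Slc2a1*: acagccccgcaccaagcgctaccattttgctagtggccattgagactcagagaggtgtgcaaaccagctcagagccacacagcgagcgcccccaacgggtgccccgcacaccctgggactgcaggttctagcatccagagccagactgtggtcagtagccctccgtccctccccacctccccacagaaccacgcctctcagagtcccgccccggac
*G6pc2*: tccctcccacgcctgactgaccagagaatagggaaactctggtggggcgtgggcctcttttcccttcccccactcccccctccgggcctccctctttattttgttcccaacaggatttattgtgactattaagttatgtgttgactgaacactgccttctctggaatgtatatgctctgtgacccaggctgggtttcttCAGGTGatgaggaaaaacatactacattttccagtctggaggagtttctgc
The E-box letters occurred once each in the *Slc2a2* and *G6pc2* stretches of 250 bases, as CAGCTG and CAGGTG, and were not found in the 216 bases of *Slc2a1*. Among all 32851 promoter entries, 66.2% held CANNTG in the 250 bases before the start and 61.6% in a window of 216 bases. *G6pc2* has a second RefSeq entry inside the gene, at chr2:69219699-69219948, with 4 matches. A match describes the letters only.

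The 9 genes spanned levels from below 1 to above 1000 FPKM. *G6pc2* was the highest, at rank 25 of all genes by mean FPKM. *Pkm* (mean 127) and *Slc2a2* (116) followed and overlapped each other in both groups, so their order is not set beyond the spread of the samples. *Pcx* (38.1) lay below these without overlap, and *Gpd2* (10.8) below *Pcx*. *Slc2a1* (5.83) and *Me1* (4.50) overlapped in both groups. *Slc2a1* lay below *Gpd2* without overlap in Ctrl, whereas in cKO the highest *Slc2a1* value, 9.32, exceeded the lowest *Gpd2* value, 8.32. *Hk1* (1.40) and *Hk2* (0.239) were the lowest and did not overlap in either group.

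**Figure D1:**
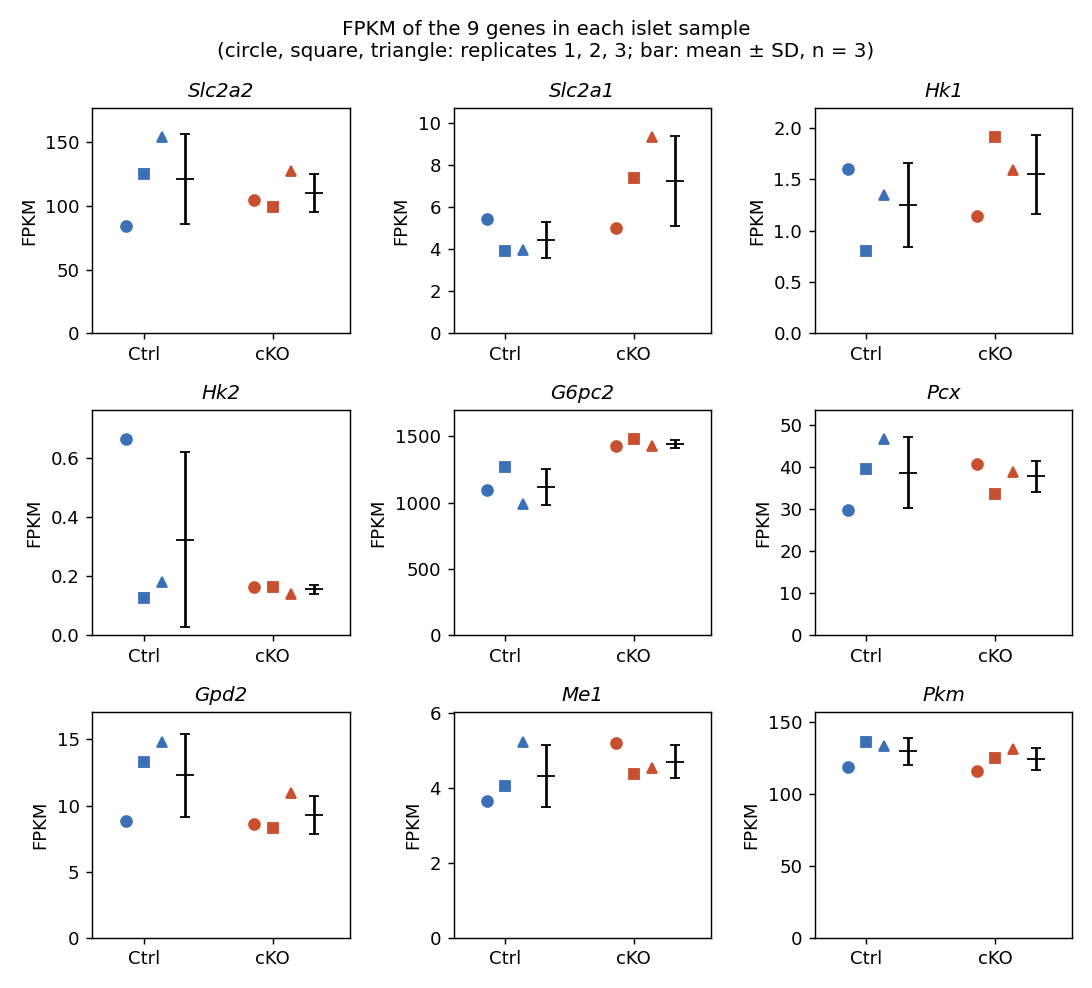
FPKM of each of the 9 genes (one panel each, linear axis from 0) in the 3 Ctrl samples (blue) and the 3 cKO samples (red), with circle, square and triangle for replicates 1, 2 and 3 and a black bar for the mean ± SD. The groups separate without overlap for *G6pc2* only, and the high *Hk2* value belongs to Ctrl replicate 1.

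*Slc2a2* (ENSMUSG00000027690, GRCm38 chromosome 3, 28697903 to 28731359) measured 83.9, 125 and 154 FPKM in Ctrl, in the order of the replicates, and 105, 99.2 and 127 in cKO. The cKO values all fell inside the range of the Ctrl values. The log2 difference was -0.10, with a 95% confidence interval from -0.65 to 0.46 (limma adjusted p = 0.947), an interval that leaves room for a cKO level between 0.637 and 1.37 times that of Ctrl. As TPM the difference was 0.0395, and without Ctrl replicate 3 it was 0.10, so its direction depended on the scaling and on single samples. In these bulk islet values, fewer β cells and less RNA per β cell cannot be told apart. The paper reports no significant difference in β-cell mass between genotypes, at ages other than that of the RNA-seq. It also reports lower *Slc30a8*, which is among the β-cell markers used here, in cKO mice. Of 10 β-cell markers, 8 had a lower mean in cKO and 1, *Ucn3*, passed an unadjusted p under 0.05, with a summed FPKM of 193928 to 216139 in cKO against 234827 to 275325 in Ctrl. *Ins2* carried this separation: without it the sums overlapped, at 79546 to 84898 in cKO and 79950 to 96975 in Ctrl. The median difference of these 10 markers was -0.32. Each cKO value of *Ins2* and *Iapp* lay below each Ctrl value, but their limma standard errors were 2.87 and 0.719. In that fit, genes at the highest levels could pass only with very large differences, which limits the count of markers that passed. The part of these 10 markers in the *Slc2a2* values was not tested.

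*Slc2a1* (ENSMUSG00000028645, chromosome 4, 119108711 to 119137983) encodes GLUT1, a high-affinity transporter found in many cell types. Its FPKM was 5.41, 3.92 and 3.94 in Ctrl replicates 1 to 3, from 331, 216 and 230 reads. In cKO replicates 1 to 3 it was 5.02, 7.35 and 9.32, from 309, 448 and 591 reads. cKO replicates 2 and 3 lay above every Ctrl sample, whereas cKO replicate 1 lay below Ctrl replicate 1. The log2 difference was 0.58 (standard error 0.218, 95% confidence interval 0.05 to 1.10, unadjusted p = 0.0354, limma adjusted p = 0.640). Without Ctrl replicate 2, Ctrl replicate 3, cKO replicate 2 or cKO replicate 3, the unadjusted p of *Slc2a1* was 0.111, 0.110, 0.0971 and 0.112 in turn (limma), and the log2 difference 0.40 at the lowest.

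Markers of vessel and stromal cells are given beside *Slc2a1*, which these cells can also express. The summed FPKM of 7 endothelial markers was 126, 110 and 122 in Ctrl, in the order of the replicates, and 133, 152 and 168 in cKO. All 7 had a higher mean in cKO, and 2, *Plvap* and *Cdh5*, passed an unadjusted p under 0.05, a threshold that 4.33% of all genes tested passed with cKO higher. For 8 stromal markers the sums were 43.3, 36.5 and 30.6 in Ctrl and 38.6, 77.4 and 70.1 in cKO, with a higher mean in cKO for all 8 and an unadjusted p under 0.05 for 2, *Lum* and *Col3a1*. The stromal sums overlapped between the groups, and 0 markers of either list passed an adjusted p under 0.05 (limma). Of all 21211 genes tested, 9856 had a higher mean in cKO. None of the markers in either list was at 0 in any sample. The samples with the highest *Slc2a1*, cKO replicates 2 and 3, were also those with the highest sums in both lists. Ctrl replicate 1, the highest Ctrl sample in *Slc2a1*, had the highest leukocyte and erythroid marker sums of all samples. The part of these cells in the *Slc2a1* values was not tested.

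**Figure D2:**
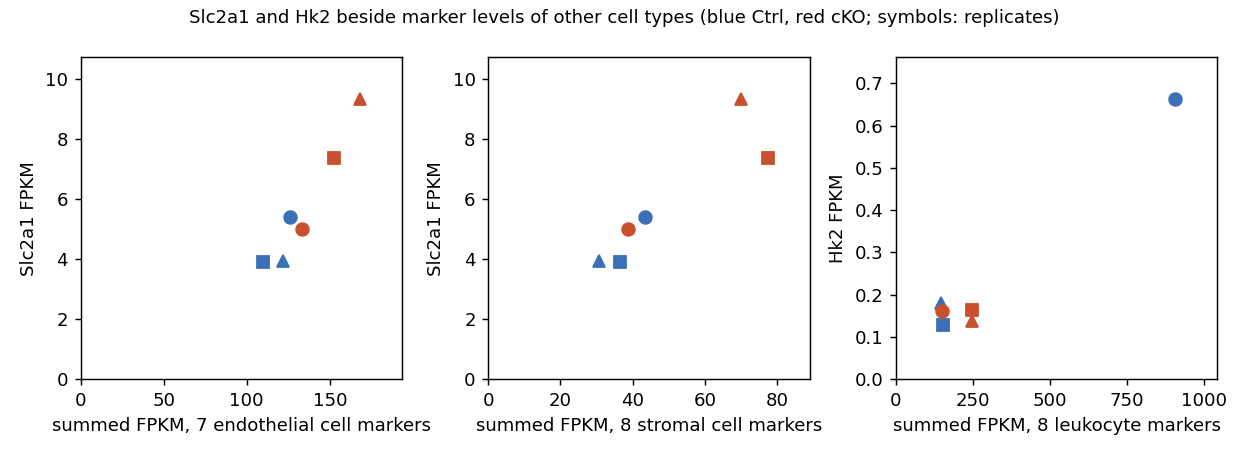
FPKM of *Slc2a1* against the summed FPKM of endothelial markers (left) and stromal markers (middle), and FPKM of *Hk2* against the summed FPKM of leukocyte markers (right), with 1 point per sample (blue Ctrl, red cKO; circle, square and triangle for replicates 1, 2 and 3) and linear axes from 0. cKO replicates 2 and 3 lie highest in *Slc2a1* and in both marker sums, and Ctrl replicate 1 lies alone at 0.663 FPKM of *Hk2* and 907 of the leukocyte sum.

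Transcripts of *Slc2a2* outnumbered those of *Slc2a1* in every sample. Per length, the ratio of *Slc2a2* to *Slc2a1* was 15.5, 31.9 and 39.1 in Ctrl, by replicate, and 20.9, 13.5 and 13.7 in cKO, so *Slc2a1* made up 2.49% to 6.06% of both transporters together in Ctrl and 4.58% to 6.90% in cKO. A ratio within a sample does not depend on how samples are scaled to each other. On the log2 scale it was 4.75 ± 0.70 (SD) in Ctrl and 3.97 ± 0.36 in cKO, a difference of -0.78 (exact two-sided permutation test, p = 0.2, where 3 samples against 3 cannot go below 0.1). The low Ctrl value was that of replicate 1. Without Ctrl replicate 1 the difference was -1.17, and without Ctrl replicate 3 it was -0.51.

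By the pattern over the 6 samples, the genes most like *Slc2a2* among the 3873 genes whose mean FPKM reached 10 were *Lpcat3* (Pearson's r = 0.998), *Bace2* (0.991) and *D630024D03Rik* (0.987). Those most like *Slc2a1* were *Lars2* (0.993), *Mettl9* (0.990) and *Gsn* (0.988). With 6 samples and this many genes, values this high describe these libraries only, and all points share the same libraries.

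Among the other sugar transporters, 10 of 11 were tested. At an unadjusted p under 0.05, 1 had a higher and 0 a lower mean in cKO, and the median difference was 0.10. The higher gene was *Slc2a13*, which encodes a proton-coupled myo-inositol transporter. Its FPKM was 2.40, 1.82 and 2.27 in Ctrl and 4.59, 4.87 and 4.29 in cKO, with each cKO sample above each Ctrl sample (log2 difference 0.82, standard error 0.115, limma adjusted p = 0.274). The most abundant transporter of this list was *Slc2a5*, which carries fructose, between 61.9 and 81.2 FPKM in Ctrl and between 68.9 and 90.8 in cKO (log2 difference 0.13, limma adjusted p = 0.876).

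*Hk1* (ENSMUSG00000037012, chromosome 10, 62268855 to 62379908) and *Hk2* (ENSMUSG00000000628, chromosome 6, 82725025 to 82774454) encode the high-affinity hexokinases. Both were low. The FPKM of *Hk1* was 1.61, 0.797 and 1.35 in Ctrl, by replicate, and 1.14, 1.91 and 1.59 in cKO, so the groups overlapped. The log2(FPKM + 1) difference was 0.19 (95% confidence interval -0.27 to 0.64, limma adjusted p = 0.853).

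*Hk2* was read from 69 fragments in Ctrl replicate 1 and from 12 to 18 in each of the other 5 samples. Its FPKM was 0.663, 0.128 and 0.181 in Ctrl and 0.162, 0.164 and 0.139 in cKO. The 3 cKO samples and Ctrl replicates 2 and 3 were thus close together, and the log2(FPKM + 1) difference of -0.17 (limma adjusted p = 0.836) became 0.000854 without Ctrl replicate 1. That sample also had the highest leukocyte, erythroid and cycling-cell marker sums, the last at 14.1 FPKM over 6 genes against 2.09 to 4.01 in the other samples. The part of these cells in *Hk2* was not tested. Within samples, *Hk1* exceeded *Hk2* by 2.42, 6.24 and 7.42 times in Ctrl and by 7.04, 11.7 and 11.5 times in cKO. The log2 ratio differed by 1.02 (exact two-sided permutation test, p = 0.2), and by 0.53 without Ctrl replicate 1.

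*G6pc2* (ENSMUSG00000005232, chromosome 2, 69211073 to 69227841) encodes the glucose-6-phosphatase of islet cells, which opposes glucose phosphorylation. Its FPKM was 1092, 1266 and 992 in Ctrl replicates 1 to 3, from 37628, 39312 and 32577 reads. In cKO replicates 1 to 3 it was 1428, 1476 and 1422, from 49508, 50660 and 50759 reads. Every cKO sample lay above every Ctrl sample, and *G6pc2* was the only one of the 9 genes without overlap, where 7.11% of all genes tested did not overlap with cKO higher, 6.03% with cKO lower and 13.1% in either direction. The cKO samples varied little, with a coefficient of variation of 2.07% against 12.4% in Ctrl. The log2 difference was 0.38 (standard error 0.188, 95% confidence interval -0.08 to 0.83, unadjusted p = 0.0888, limma adjusted p = 0.720), or 1.29 times as a ratio of mean FPKM.

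Whether *G6pc2* passed an unadjusted p under 0.05 depended on the variance model, the filter and the scaling. The fit with the variance trend gave wide intervals at the highest levels. *Ins2* varied by 7.20% in Ctrl and 9.91% in cKO (coefficient of variation), yet its standard error was 2.87. The interval of *G6pc2* thus reflects the trend as well as the spread between samples. With the trend of variance on level left out, its unadjusted p was 0.0164 (limma adjusted p = 0.566), and with voom weights on whole reads it was 0.00946 at the same log2 difference of 0.38. With only genes whose mean FPKM reached 1 it was 0.0372, and as TPM it was 0.0270 at a log2 difference of 0.51 (limma). Leaving out 1 sample at a time kept the difference between 0.29 and 0.47, but *G6pc2* passed in 0 of these 6 fits. Quantile normalization, which forces the highest ranks of all samples to the same values, gave 0.19. *G6pc2* overlaps no other gene of the table. Its mean was higher in cKO, where 8 of 10 β-cell markers had a lower mean. The part of β-cell content in the *G6pc2* values was not tested.

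The other genes of sugar phosphorylation and of glucose-6-phosphate hydrolysis were 6, of which 4 were tested and 0 passed an unadjusted p under 0.05 in either direction. The highest was *Slc37a4*, the transporter that brings glucose-6-phosphate into the endoplasmic reticulum, where G6PC2 acts. Its FPKM was 35.9 ± 4.28 in Ctrl and 30.0 ± 2.85 in cKO (log2 difference -0.25, limma adjusted p = 0.70). *G6pc*, the liver enzyme, and *Hkdc1* had a mean FPKM under 0.1.

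**Figure D3:**
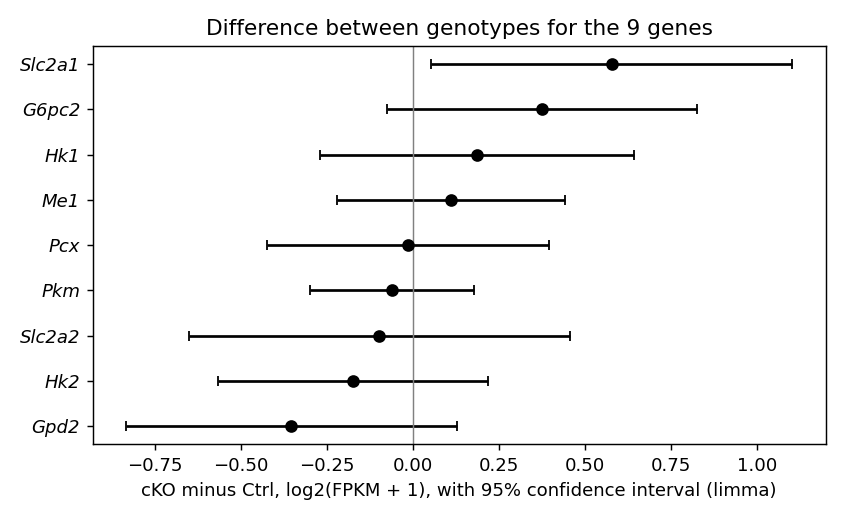
Difference between cKO and Ctrl in log2(FPKM + 1) for the 9 genes (points), with 95% confidence intervals from limma (bars), ordered by size. The bar lies above 0 for *Slc2a1* only, from 0.05 to 1.10, and includes 0 for the other 8 genes.

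*Pkm* (ENSMUSG00000032294, chromosome 9, 59656368 to 59679375) encodes pyruvate kinase of muscle and most other tissues, the last step of glycolysis. Its FPKM was 119, 136 and 133 in Ctrl and 116, 125 and 131 in cKO, the smallest relative spread of the 9 genes within Ctrl, at 7.28%. The log2 difference was -0.06 with a 95% confidence interval from -0.30 to 0.18 (limma adjusted p = 0.918). The FPKM sums over the splice forms of the gene, so its M1 and M2 forms were not separated. Of 14 other glycolytic genes after glucose-6-phosphate, 14 were tested and 0 passed an unadjusted p under 0.05 in either direction, with a median difference of -0.03. The most abundant of them was the aldolase *Aldoa*, at 129 ± 3.31 FPKM in Ctrl and 126 ± 11.2 in cKO (log2 difference -0.04, limma adjusted p = 0.943). *Aldoa* has a second row under the same name, and the row with the higher mean was used. *Gapdh*, of the same list, had a mean of only 3.38 FPKM, and whether its reads were fully counted was not tested.

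*Pcx* (ENSMUSG00000024892, chromosome 19, 4510472 to 4621752) measured 29.8, 39.5 and 46.5 FPKM in Ctrl and 40.7, 33.6 and 38.8 in cKO. The cKO values all lay within the Ctrl range, and the log2 difference was -0.01 (95% confidence interval -0.42 to 0.39, limma adjusted p = 0.993). The span of *Pcx* also holds *Lrfn4* on the opposite strand, at 16.3 to 24.1 FPKM. Whether the counting used strand is not given in the sources used here, so reads of this pair may be mixed. *Me1* (ENSMUSG00000032418, chromosome 9, 86581371 to 86695953), the cytosolic malic enzyme, had 3.65, 4.05 and 5.23 FPKM in Ctrl and 5.19, 4.36 and 4.54 in cKO, also within the Ctrl range. Its log2 difference was 0.11 (95% confidence interval -0.22 to 0.44, limma adjusted p = 0.889).

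*Gpd2* (ENSMUSG00000026827, chromosome 2, 57237635 to 57370719), the mitochondrial glycerol phosphate dehydrogenase, had FPKM values of 8.80, 13.3 and 14.8 in Ctrl replicates 1 to 3. In cKO replicates 1 to 3 it was 8.58, 8.32 and 10.9. The values of Ctrl replicates 2 and 3 exceeded those of all cKO samples, whereas Ctrl replicate 1 lay below cKO replicate 3. The log2 difference was -0.35 (standard error 0.200, 95% confidence interval -0.83 to 0.13, limma adjusted p = 0.767). With Ctrl replicate 1 left out, the difference in *Gpd2* was -0.56, with an unadjusted p = 0.00950 and a limma adjusted p = 0.280.

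Within Ctrl, replicate 1 had the lowest value for 5 of the 9 genes, *Slc2a2*, *Pcx*, *Gpd2*, *Me1* and *Pkm*, and the highest for 3, *Slc2a1*, *Hk1* and *Hk2*. Over the 6 samples, Pearson's r of log2(FPKM + 1) with *Slc2a2* was 0.907 for *Pcx* and 0.884 for *Gpd2*, against -0.256 for *Slc2a1* and -0.271 for *G6pc2*, as a description of these libraries. 

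In the surrounding pathways, 109 of 112 genes on 10 lists were tested, of which 5 had a higher and 4 a lower mean in cKO at an unadjusted p under 0.05, and 0 passed an adjusted p under 0.05. In either direction, 7.40% of all genes tested passed that unadjusted threshold. Among 10 regulators of glycolysis, 1 was higher and 1 lower. *Pfkfb4*, an enzyme that sets the level of the glycolytic activator fructose-2,6-bisphosphate, had 2.72, 2.11 and 1.54 FPKM in Ctrl and 3.06, 3.89 and 3.58 in cKO, without overlap (log2 difference 0.54, limma adjusted p = 0.546). *Mlxipl*, which encodes the glucose-responsive factor ChREBP, had 42.3, 56.8 and 65.0 in Ctrl and 44.9, 26.8 and 26.4 in cKO. In *Mlxipl*, cKO replicate 1 lay above Ctrl replicate 1 and the groups overlapped (log2 difference -0.75, standard error 0.248, limma adjusted p = 0.581).

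*Txnip*, a known ChREBP target and the most abundant gene of the regulator list, measured 152, 159 and 148 FPKM in Ctrl and 231, 164 and 176 in cKO. Its cKO samples lay above its Ctrl samples, although the unadjusted p was 0.0804 (log2 difference 0.30, limma adjusted p = 0.710). *Arrdc4*, a relative of *Txnip*, did not overlap between the groups either (log2 difference 0.30, limma adjusted p = 0.694). Over the whole regulator list, 4 of 10 genes did not overlap with cKO higher and 0 with cKO lower, where 7.11% and 6.03% of all genes tested did so. *Pfkfb1*, among these 4, was scarce, with a mean of 0.253 FPKM. Over all pathway lists together, 9 of 109 tested genes did not overlap with cKO higher and 8 with cKO lower.

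For the fate of pyruvate, 1 of 7 genes of lactate and pyruvate transport was lower at an unadjusted p under 0.05 and 0 were higher. This was *Mpc1*, a subunit of the mitochondrial pyruvate carrier, with 4.27, 5.37 and 4.10 FPKM in Ctrl and 2.35, 3.54 and 3.16 in cKO, without overlap (log2 difference -0.48, standard error 0.155, limma adjusted p = 0.562). Its partner *Mpc2* had a log2 difference of -0.02 (limma adjusted p = 0.979). By the mean over all 6 samples, the most abundant gene of the list was the lactate dehydrogenase subunit *Ldhb*, close to *Ldha* (8.17 and 8.02 FPKM). In Ctrl *Ldha* had the higher mean, with 18.9, 4.28 and 4.81 FPKM by replicate. The Ctrl values of *Ldhb* were 6.57, 9.76 and 9.65, so *Ldha* exceeded it in Ctrl replicate 1 only. *Ldhb* had 8.66 ± 1.81 FPKM in Ctrl and 7.69 ± 0.189 in cKO. Of 11 genes of the pyruvate dehydrogenase complex and its regulators, 0 passed in either direction, and the median difference was -0.04. Their most abundant member was *Pdhb*, at 24.0 ± 1.45 FPKM in Ctrl and 23.1 ± 0.737 in cKO.

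Among 19 genes of NADH shuttles and pyruvate cycling, 1 was higher and 1 lower. *Idh1*, the cytosolic isocitrate dehydrogenase, had 15.5, 14.8 and 14.5 FPKM in Ctrl and 11.3, 11.9 and 12.7 in cKO (log2 difference -0.30, standard error 0.0796, limma adjusted p = 0.482). *Gpd1l*, a relative of the cytosolic partner of *Gpd2*, had 6.60, 7.12 and 6.18 in Ctrl and 7.95, 8.78 and 7.68 in cKO (log2 difference 0.26, limma adjusted p = 0.619). Neither gene overlapped between the groups. The most abundant member, the ATP citrate lyase *Acly*, had 294 ± 46.5 FPKM in Ctrl and 265 ± 12.9 in cKO (log2 difference -0.14, limma adjusted p = 0.859).

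Of 15 citric acid cycle genes, 2 were higher and 0 lower at an unadjusted p under 0.05, with a median difference of 0.01. *Ogdh*, a subunit of the 2-oxoglutarate dehydrogenase complex, had 28.3 ± 0.925 FPKM in Ctrl and 34.5 ± 4.31 in cKO (log2 difference 0.27, limma adjusted p = 0.641). *Suclg2*, a subunit of succinyl-CoA ligase, had 7.61 ± 0.321 and 9.33 ± 0.545 (log2 difference 0.26, limma adjusted p = 0.555). The groups did not overlap for either gene. The most abundant gene of the cycle was *Sdhd*, a subunit of succinate dehydrogenase, at 89.1 ± 8.49 FPKM in Ctrl and 77.3 ± 6.26 in cKO. Of 7 genes of the pentose phosphate pathway, 0 passed in either direction, and the median difference was -0.14. Of these 7, 3 did not overlap with cKO lower and 0 with cKO higher, where 6.03% and 7.11% of all genes tested did so. *Taldo1* was the most abundant, at 44.0 ± 5.56 FPKM in Ctrl and 39.4 ± 0.984 in cKO.

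*Slc2a1* and *Hk2* are also known to respond to low oxygen. A list of 12 other genes with such a response was examined, which leaves out any responders on the lists above. Of these 12, 1 had a lower and 0 a higher mean in cKO at an unadjusted p under 0.05, with a median difference of 0.02. The lower gene, *Egln3*, was scarce at 0.507 ± 0.178 FPKM in Ctrl and 0.192 ± 0.0597 in cKO (log2(FPKM + 1) difference -0.33, limma adjusted p = 0.626). *Vegfa*, the most abundant, had 110 ± 19.7 FPKM in Ctrl and 92.0 ± 5.62 in cKO (log2 difference -0.24, limma adjusted p = 0.797).

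Leaving out 1 sample at a time, the 9 list genes at an unadjusted p under 0.05 kept their direction, and *Slc2a13* and *Idh1* passed each time. *Suclg2* did not pass without cKO replicate 2, *Pfkfb4* without cKO replicate 2 or 3, and *Mpc1* without Ctrl replicate 2 or cKO replicate 1. *Mlxipl* passed only without Ctrl replicate 1 or cKO replicate 1, *Gpd1l* only without Ctrl replicate 2 or cKO replicate 3, *Ogdh* only without cKO replicate 2 or 3, and *Egln3* only without Ctrl replicate 2 or cKO replicate 2. As TPM, *Idh1* (-0.18, unadjusted p = 0.0830, limma) and *Egln3* (-0.47, unadjusted p = 0.0527) did not pass. After scaling to β-cell markers, *Mlxipl*, *Mpc1*, *Idh1* and *Egln3* did not pass.

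**Figure D4:**
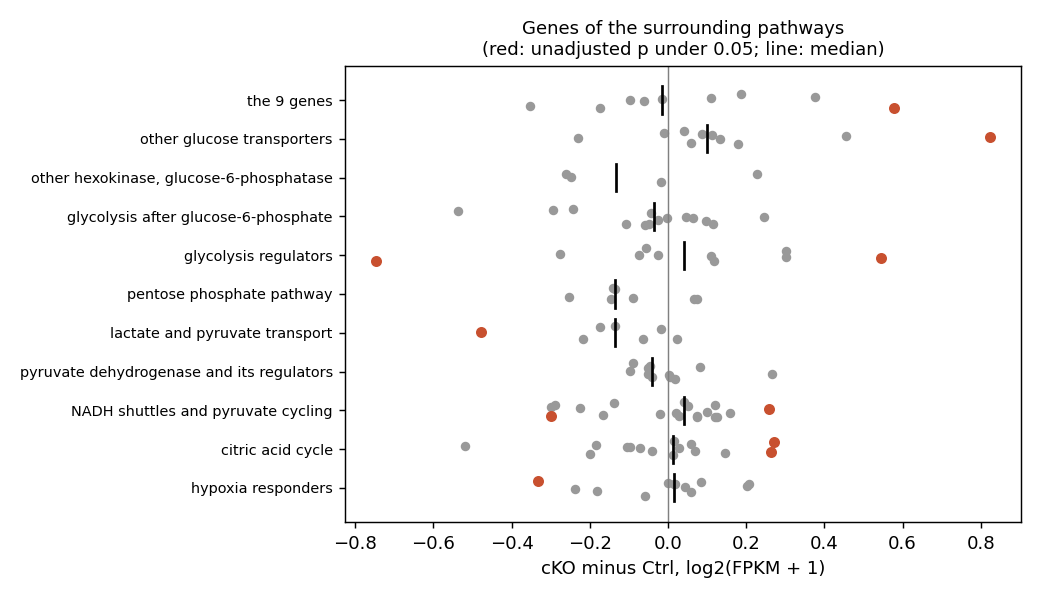
Difference between cKO and Ctrl in log2(FPKM + 1) for the 9 genes (top row) and for the tested genes of 10 pathway lists (rows below), with 1 point per gene, red for an unadjusted p under 0.05, and a black line for the median of each list. The medians lie between -0.14 and 0.10, and single genes such as *Slc2a13* (0.82) and *Mlxipl* (-0.75) lie farthest from 0.

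**Figure D5:**
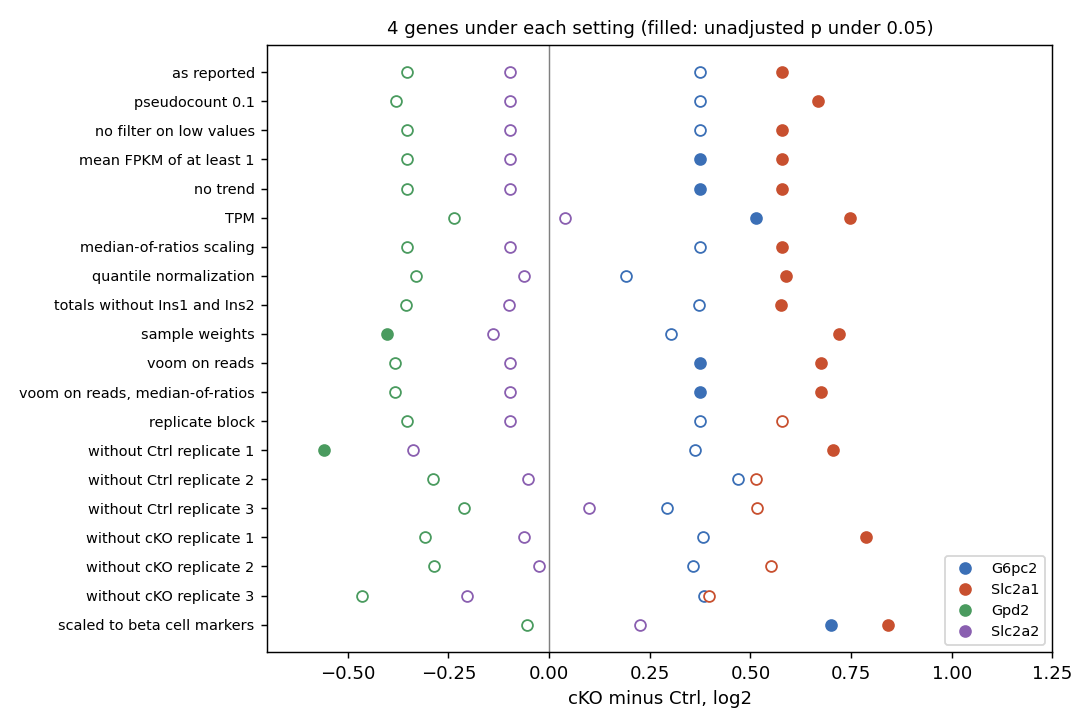
Log2 difference between cKO and Ctrl for *G6pc2*, *Slc2a1*, *Gpd2* and *Slc2a2* (colours) as reported and under each of 19 other settings of the fit (rows, of which both with median-of-ratios repeat another row), filled where the unadjusted p was under 0.05. *G6pc2* and *Slc2a1* stay above 0 and *Gpd2* below 0 in all rows, whereas *Slc2a2* lies on both sides of 0.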

How the data were processed

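RNA-seq of isolated islets was analysed in 3 Ctrl and 3 cKO samples, grouped by their labels. Per the labels, RNA was extracted with TRIzol and libraries were made with a SMARTER kit; the processing notes name GRCm38. The aligner, counter and strand setting are not given in the sources used here. The authors tested genotypes with DESeq2. The authors deposited FPKM per gene and sample. FPKM was multiplied by gene length and divided by a step fitted in each sample, taken as the value of a single read. This gave whole reads for 100% of values (tolerance 0.01). Median-of-ratios factors over genes above 0 were 1 in every sample, so the deposited FPKM already carry that scaling.

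Genotypes were compared on log2(FPKM + 1) with limma 3.58.1 in R 4.3.3 (moderated by a variance trend, two-sided, adjusted by Benjamini-Hochberg) over genes whose mean FPKM was 0.1 or more. Differences on this scale understate changes of genes with low FPKM. Ratios within samples were compared by exact permutation tests (SciPy 1.17.1). The code was tested on simulated data. Members, lists and markers were chosen with earlier results of these data known. Named besides the 9 genes were *Parn*, list genes at an unadjusted p under 0.05, the most abundant gene of each list and the 3 genes most like each transporter. *Arrdc4*, *Pfkfb1*, *Mpc2*, *G6pc*, *Hkdc1*, *Ldha*, *Lrfn4*, *Gapdh* and the markers *Plvap*, *Cdh5*, *Lum*, *Col3a1*, *Ucn3*, *Iapp* and *Slc30a8* were named after their values were seen. Promoter letters came from RefSeq. Alternatives were other pseudocounts, filters, scalings, sample weights, voom on reads, a replicate block and each sample left out; scaling to β-cell markers was added after seeing the data.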

Additional observations from a re-analysis of the deposited data

How the results depend on the processing

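Because all median-of-ratios factors were 1, both settings with that scaling repeat another fit. In the 17 distinct alternatives, *Slc2a1*, *G6pc2*, *Hk1* and *Me1* had a higher and *Gpd2* a lower mean in cKO; *Slc2a1* passed an unadjusted p under 0.05 in 12, *G6pc2* in 5 and *Gpd2* in 2. The number of the 9 genes higher at that threshold was 1 as reported and 2 with a mean FPKM of at least 1, without the trend, as TPM and with voom on reads with either library size. It was 3 after scaling to β-cell markers, an alternative chosen after seeing the data, 0 with the replicate block, and 0 to 1 with each sample left out. The number lower was 0 as reported, 1 with sample weights, and 0 to 1 with each sample left out. At an adjusted p under 0.05, each left-out sample gave 0 to 1 genes in all, the 1 being without Ctrl replicate 1. The log2 ratio of *Slc2a2* to *Slc2a1* kept its direction, from -1.17 to -0.51 with each sample left out, as did that of *Hk1* to *Hk2*, from 0.53 to 1.34.

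TPM moved the median of genes whose mean FPKM reached 1 to 0.11 and scaling to β-cell markers to 0.25 (log2), against -0.02 as reported. Under these, *Slc2a2* turned to 0.0395 and 0.23, *Pcx* to 0.12 and 0.30 and *Pkm* to 0.0766 and 0.26, and relative to the shift *G6pc2* was higher by 0.41 and 0.45 and *Slc2a1* by 0.64 and 0.60. With each sample left out, *Slc2a2* ranged from -0.34 to 0.10, *Pcx* from -0.19 to 0.13 and *Hk2* from -0.28 to 0.000854. No source used here says that a replicate number marks a shared animal, litter or day. Deviations of same-numbered samples correlated at -0.171, -0.0219 and -0.0652, so the block was not used for the reported values. With the block *Slc2a1* had an unadjusted p of 0.0778 (limma), and *Ogdh*, *Suclg2*, *Mlxipl* and *Egln3* did not pass either, so that 0 citric acid cycle genes did. The causes of these changes were not tested. At 12 to 69 reads per sample, *Hk2* could show only large differences.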
